A study of Mus musculus with 64 samples.

Results

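The genes described here are 35 members of the NF-κB pathway, followed across mouse CD4 T cells in which the transcription factor Foxp3 was lost or regained. They were chosen by name from the pathway's core parts, with earlier results of these data known, and all 35 were found among the 55809 gene names of the count files. By role they comprise 5 subunits of the factor (Nfkb1, Nfkb2, Rel, Rela, Relb), 6 IκB proteins (Nfkbia, Nfkbib, Nfkbid, Nfkbie, Nfkbiz, Bcl3) and 7 kinases or kinase partners (Ikbkb, Ikbke, Ikbkg, Chuk, Map3k14, Map3k7, Tab2). The others are 9 adaptors and ubiquitin ligases (Traf1, Traf2, Traf3, Traf5, Traf6, Birc2, Birc3, Rnf31, Rbck1), 4 brakes (Tnfaip3, Tnip1, Cyld, Otulin) and 4 ligands or surface targets (Tnf, Lta, Ltb, Cd83). All 35 passed the filter on low counts (a mean count of at least 10 in the libraries of a fit) in every comparison.

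NF-κB is a family of dimeric transcription factors that IκB proteins hold in the cytoplasm of unstimulated cells. In the canonical route, antigen receptor or cytokine signals activate a kinase complex built of Chuk, Ikbkb and the scaffold Ikbkg, which marks IκB for degradation, so that dimers containing Rela or Rel enter the nucleus; in the noncanonical route, TNF receptor family members stabilise Map3k14, and the Nfkb2 precursor is processed to pair with Relb. Several targets of the pathway feed back on it, among them Nfkbia and Tnfaip3, and in regulatory T (Treg) cells Rel is known for its part in Foxp3 induction during thymic differentiation.

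The series held 64 bulk RNA-seq libraries in 28 groups, made from sorted Treg cells or from cells that express a Foxp3 reporter without Foxp3 protein. In the loss-of-function model, mice with Foxp3-AID, an allele whose protein carries an auxin-inducible degron, also carried ROSA26-TIR1(F74G), which encodes the plant adaptor that directs tagged protein to degradation, or ROSA26-WT. In the gain-of-function model, the reversible null allele Foxp3-LSL expressed Thy1.1 in place of Foxp3 until a single dose of 4-hydroxytamoxifen (4-OHT) activated CreERT2, and then restored Foxp3 together with GFP. Treg cells of untreated Foxp3GFP reporter mice gave the level of cells that had expressed Foxp3 throughout.

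Both genotypes of the degron model received the ligand 5-ph-IAA for 7 days, so every control mouse was treated too. The adult libraries came from thymic Treg cells that lacked CD73 (newly made cells) and from active, CD62 low Treg cells of spleen and lymph nodes, with 3 libraries per genotype and tissue. The Foxp3-AID allele also encodes a Cre that opens the ROSA26 locus, so TIR1 was made only in Foxp3-expressing cells. The adults were heterozygous females, whose second Foxp3 allele supplies untagged Treg cells to the host. The labels give no sex for the infants, and the study's methods name hemizygous males, which have no second allele, for its experiments on that age. Infant Treg cells of spleen and lymph nodes gave 4 libraries titled TIR1 and 4 titled WT, but the genotype field of each states the opposite, so the direction of that comparison cannot be settled. The adult files were assigned to samples by the library name in the file header, which the sample descriptions repeat. The recorded attachment of these 12 files to samples gives the opposite genotype, under which every sign of the adult TIR1 comparisons turns.

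In the reversible model, minusFoxp3 cells carried Foxp3-LSL without CreERT2 (Cd4-WT) and plusFoxp3 cells carried it with Cd4-CreERT2, which is driven from the Cd4 locus. Resting and active cells were collected before treatment (day 0) and at 3, 7, 14 and 28 days after 4-OHT, with 2 libraries per group. Day 0 plusFoxp3 cells carried the CreERT2 genotype only and had not received the drug. All mice of this model were heterozygous females, whose other allele keeps functional Treg cells in the host. No label ties a replicate number to a mouse or a sorting day, so p-values measure the spread between these libraries, which may be partly technical.

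Assigned counts per library ranged from 27753211 to 34029692 in the adult degron libraries, from 33704114 to 55801009 in the infant libraries and from 35097257 to 57419138 in the reversible-allele and GFP Treg libraries. Foxp3 itself, in CPM (counts scaled to the total assigned counts of the library), stood at 46.2–65.3 in active minusFoxp3 cells at day 0, 592–594 in active plusFoxp3 cells at day 28 and 734–817 in active GFP Treg cells. Resting cells gave 67.9–77.0, 526–615 and 635–657 CPM in the same order. Degron loss acts on protein, and Foxp3 RNA was 144–181 CPM in thymic WT and 144–168 CPM in thymic TIR1 libraries. Nt5e, which encodes CD73, was at most 26.9 CPM in thymic and at least 665 CPM in active degron libraries, as sorted.

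Promoters are shown for 6 members that passed the test in at least 1 comparison below. Each holds the κB consensus within 300 bases around the annotated start. They were taken in order of the number of comparisons passed, then by name. Nfkbia and Nfkbid, which passed in 1 comparison as Nfkb2 did, also hold the consensus and are not shown. Each sequence is the RefSeq window of GRCm38.p6 running from 250 bases before to 50 bases after the start, written 5′ to 3′ on the gene's strand, with the consensus in capitals. The Bcl3 window lies at chr7:19822706-19823005 (minus strand), Rel at chr11:23770920-23771219 (minus), Ltb at chr17:35194257-35194556 (plus), Nfkbie at chr17:45555450-45555749 (plus), Tnip1 at chr11:54962891-54963190 (minus) and Nfkb2 at chr19:46304487-46304786 (plus).
Bcl3: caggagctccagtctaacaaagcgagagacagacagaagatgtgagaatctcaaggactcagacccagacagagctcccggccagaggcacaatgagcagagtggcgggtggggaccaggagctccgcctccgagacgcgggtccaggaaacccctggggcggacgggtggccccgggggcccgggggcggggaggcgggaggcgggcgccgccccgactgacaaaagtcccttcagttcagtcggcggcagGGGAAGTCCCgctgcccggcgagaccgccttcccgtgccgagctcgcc
Rel: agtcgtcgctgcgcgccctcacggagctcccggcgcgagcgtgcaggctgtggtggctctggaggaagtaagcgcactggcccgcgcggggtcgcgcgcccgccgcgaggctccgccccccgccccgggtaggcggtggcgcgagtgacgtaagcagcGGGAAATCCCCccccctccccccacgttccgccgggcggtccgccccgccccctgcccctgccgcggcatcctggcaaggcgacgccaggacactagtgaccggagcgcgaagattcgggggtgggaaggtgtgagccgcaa
Ltb: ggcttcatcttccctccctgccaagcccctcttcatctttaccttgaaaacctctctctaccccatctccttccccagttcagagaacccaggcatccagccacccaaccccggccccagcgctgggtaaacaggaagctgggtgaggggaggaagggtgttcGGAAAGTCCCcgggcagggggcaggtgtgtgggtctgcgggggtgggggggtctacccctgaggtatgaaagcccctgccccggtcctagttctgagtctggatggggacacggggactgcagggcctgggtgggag
Nfkbie: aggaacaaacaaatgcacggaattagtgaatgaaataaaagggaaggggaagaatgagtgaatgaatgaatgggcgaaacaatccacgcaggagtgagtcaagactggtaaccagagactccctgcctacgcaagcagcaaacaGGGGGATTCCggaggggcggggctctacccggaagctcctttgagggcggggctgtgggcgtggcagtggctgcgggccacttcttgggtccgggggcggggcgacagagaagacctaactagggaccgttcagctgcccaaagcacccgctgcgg
Tnip1: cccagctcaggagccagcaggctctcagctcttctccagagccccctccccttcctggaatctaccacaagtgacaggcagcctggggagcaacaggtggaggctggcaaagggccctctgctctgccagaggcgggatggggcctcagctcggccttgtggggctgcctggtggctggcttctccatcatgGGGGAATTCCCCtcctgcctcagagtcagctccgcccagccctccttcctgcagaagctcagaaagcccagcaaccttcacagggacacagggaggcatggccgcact
Nfkb2: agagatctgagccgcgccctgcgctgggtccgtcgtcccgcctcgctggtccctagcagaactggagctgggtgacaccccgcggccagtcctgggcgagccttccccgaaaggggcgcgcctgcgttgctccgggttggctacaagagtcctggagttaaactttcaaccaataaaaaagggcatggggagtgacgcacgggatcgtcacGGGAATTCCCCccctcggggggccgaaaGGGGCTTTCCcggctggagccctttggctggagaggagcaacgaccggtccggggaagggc

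The motif searched was the κB consensus by name, on both strands, with overlapping matches counted separately. The match began 87 bases before the start in Ltb and 106 bases before it in Nfkbie. Rel held 2 overlapping matches, 92 and 91 bases upstream, and Tnip1 held 3 overlapping matches that began 58 to 56 bases upstream. Nfkb2 had 2 overlapping matches (39 and 38 bases upstream) and 1 more that began 11 bases upstream, in 1 of its 3 annotated windows. The Bcl3 match lay just past the start. RefSeq windows were matched by symbol for 30 of the 35 members (not Nfkb1, Relb, Nfkbiz, Ikbkb or Cd83), and 12 of the 30 (40.0%) held the consensus in at least 1 window, against 9.55% of the 27025 genes in the table. Counted by window, 14 of 41 (34.15%) held it, against 8.46% of all 32851. Such a match describes the letters of the window and not a bound site.

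Corrected for exon length (RPKM, which divides the scaled counts by the kilobases of exon), Ltb, a membrane-anchored ligand of the lymphotoxin β receptor, was the most abundant of the 35 in 28 of 28 groups and Nfkbia, the main inhibitor of canonical dimers, was second in 28 of 28. Group means of Ltb ran from 606 RPKM in active minusFoxp3 cells at day 14 to 1452 in thymic WT Treg cells, and those of Nfkbia from 295 to 748. Cd83, a surface protein of activated lymphocytes, moved between ranks 3 and 24, with 16.1 RPKM in resting minusFoxp3 cells at day 0 and 186 RPKM in active GFP Treg cells. Nfkb1, which encodes the precursor of a DNA-binding subunit that lacks an activation domain, moved between ranks 10 and 32, from 10.7 RPKM in thymic TIR1 to 39.7 RPKM in active minusFoxp3 cells at day 7. Map3k14 (ranks 31 to 35) and Ikbkg (30 to 34) were among the least abundant in every group, and Rel moved between ranks 23 and 35, with a lowest group mean of 2.56 RPKM. These levels were set across files counted with different read filters, so the order within a group is firmer than a level across experiments.

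Of the 35 genes, 24 passed the test (edgeR, adjusted p under 0.05 over all genes tested) in at least 1 of 24 comparisons and 11 passed in none. Of the 12917 genes tested in every comparison, 43.1% passed in at least 1. The 11 members were Ikbkb, Ikbkg and Map3k7 among the kinases, Nfkbib, the adaptors and ligases Traf2, Traf3, Traf6, Rnf31 and Rbck1, and the deubiquitinating enzymes Tnfaip3 and Cyld. Nfkb1 and Cd83 each passed in 10 comparisons, Nfkb1 lower in 9 and Cd83 higher in 9. Several of these comparisons share libraries and are not independent of one another.

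**Figure D1:**
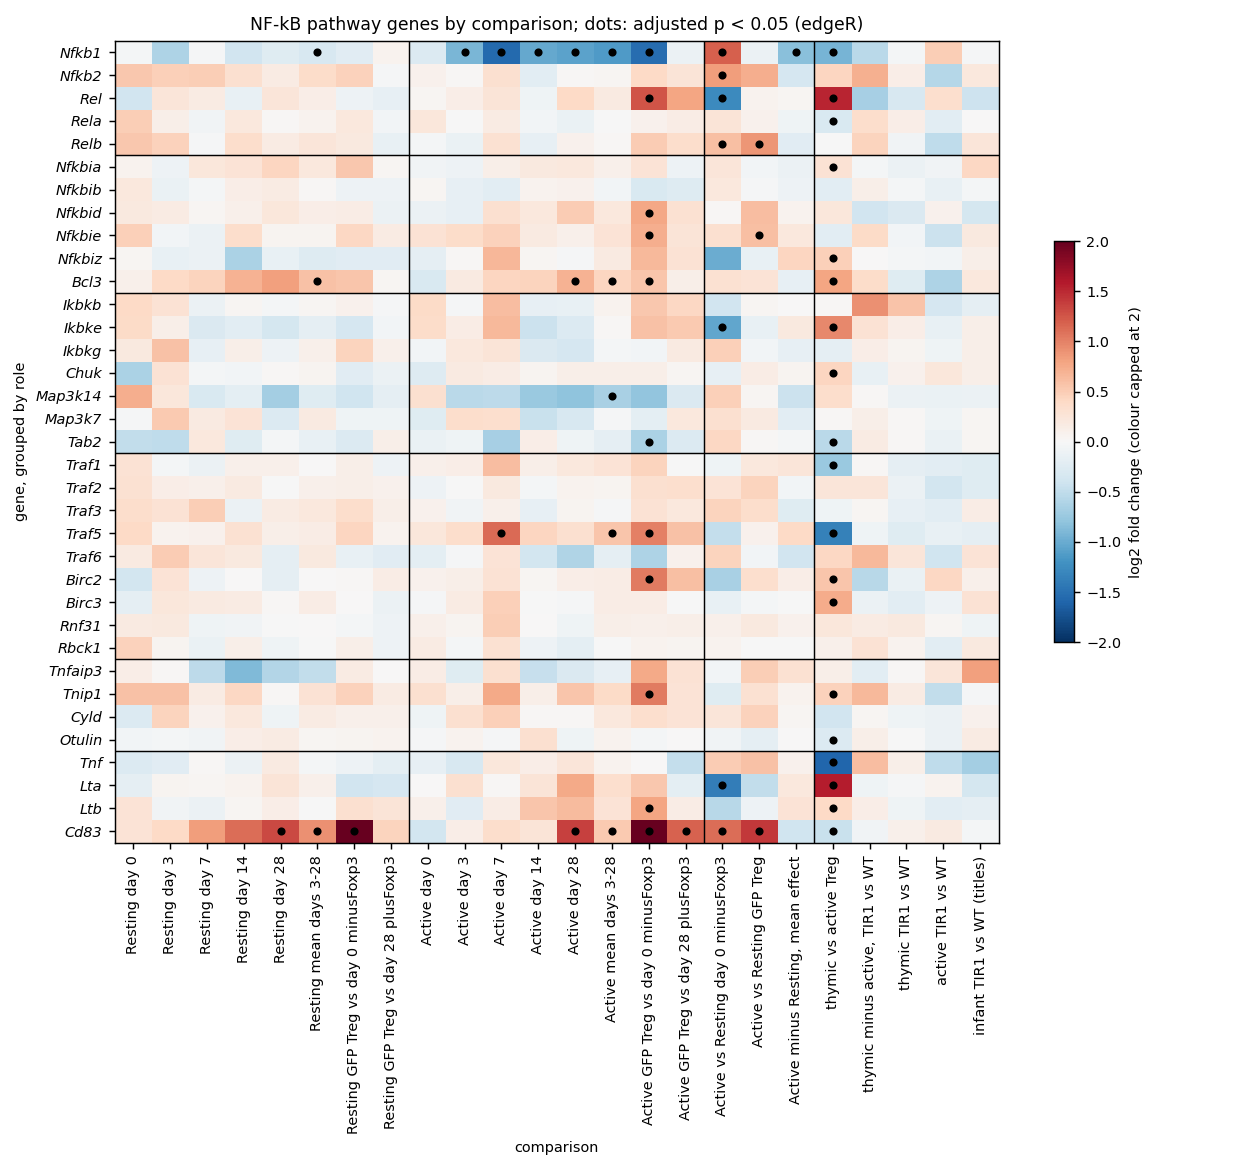
Log2 fold changes of the 35 genes (rows, grouped by role) in the 24 comparisons (columns), with colour capped at 2 and a dot where the edgeR adjusted p was under 0.05. Nfkb1 is blue with dots through the active plusFoxp3 columns from day 3, Cd83 is red in the day 28 and GFP Treg columns, and the thymic column holds 19 dots.

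Restoring Foxp3 in active cells was followed by lower Nfkb1 at every time point after 4-OHT. In minusFoxp3 cells Nfkb1 stood at 499 and 391 CPM at day 0, 511 and 375 at day 3, 522 and 434 at day 7, 401 and 398 at day 14, and 369 and 321 at day 28. PlusFoxp3 cells held 363 and 366 CPM before treatment, then 222 and 227 at day 3, 150 and 168 at day 7, 180 and 213 at day 14, and 154 and 173 at day 28. At days 7 and 28 the plusFoxp3 libraries lay near the 152 and 151 CPM of active GFP Treg cells. The day 14 plusFoxp3 libraries, at 180 and 213 CPM, lay above these. The plusFoxp3 and minusFoxp3 groups did not overlap at any day, day 0 included. With 2 libraries a group many genes separate in this way by chance, and the share of all genes that do was not computed. Here and below, non-overlap describes the values and is not a test. The log2 difference was -0.27 ± 0.16 (SE) at day 0, when the drug had not been given (edgeR adjusted p = 0.999). It was -0.92 ± 0.16 at day 3 (edgeR adjusted p = 0.0201), -1.55 ± 0.16 at day 7 (edgeR adjusted p = 0.000107), -1.02 ± 0.16 at day 14 (edgeR adjusted p = 0.0043) and -1.07 ± 0.16 at day 28 (edgeR adjusted p = 0.00142). Averaged over days 3 to 28 it was -1.14 ± 0.081 (edgeR adjusted p = 1.34e-07). In the files' annotation (GRCm39) Nfkb1 spans positions 135290416 to 135397308 of chromosome 3, on the minus strand.

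Single libraries mattered for some of these days. The day 3 call was lost without minusFoxp3 replicate 1 (log2 -0.71), plusFoxp3 replicate 1 (-0.88) or plusFoxp3 replicate 2 (-0.96), and the day 14 call without plusFoxp3 replicate 1 (-0.91), with the direction kept each time. The mean over days 3 to 28 passed whichever library was left out. When only the 4 libraries of a day were fitted, the Nfkb1 call was lost at day 3 (-0.93) and day 7 (-1.58) at nearly the same fold.

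Few other members passed in active cells. At day 0, 0 of 35 passed (0.00481% of all genes did), 0 had an unadjusted p under 0.05 (4.58% of all genes) and 0 passed with DESeq2 (0.0818%). Nfkb1 alone passed at day 3 and at day 14, where 0.274% and 0.732% of all genes passed. At day 7, 2 members passed (0.568% of all genes), Nfkb1 and Traf5, and at day 28, 3 did (1.85%), with Cd83 and Bcl3 higher (0.900% of all genes) and Nfkb1 lower (0.953%). For the mean of days 3 to 28, 5 of 35 passed against 6.22% of all genes, 3 higher (3.23%) and 2 lower (2.99%). The median log2 difference of the 35 in that mean was 0.07, beside 0.00 for all 20776 genes tested.

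The day 7 values also depended on minusFoxp3 replicate 1, the lowest active library of this model for Ikbke and Nfkbiz. It gave 64.9 and 43.4 CPM of these genes, against 168 and 113 CPM in replicate 2 of the same group. Leaving out replicate 2 set replicate 1 alone against the plusFoxp3 libraries, with log2 differences of 1.49 for Ikbke and 1.21 for Tnip1. Such values describe that library as much as the group. The replicates of that group differed most of all 46 replicate pairs, with a chi-square per gene of 191 (lowest pair 17.3).

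Traf5, an adaptor of TNF receptor family members, was higher in active plusFoxp3 cells. Its minusFoxp3 libraries gave 74.1 and 74.7 CPM at day 0, 93.5 and 81.2 at day 3, 37.9 and 69.2 at day 7, 81.3 and 68.8 at day 14, and 79.7 and 78.6 at day 28. The plusFoxp3 libraries gave 87.8 and 84.3, 117 and 96.1, 101 and 128, 93.7 and 108, and 91.2 and 106 CPM at the same days. The groups did not overlap at any day, and the first minusFoxp3 library of day 7 was the lowest of all. They were thus already apart at day 0, when the drug had not been given. That earlier difference was not subtracted from the values that follow. The log2 difference was 1.13 ± 0.21 at day 7 (edgeR adjusted p = 0.0194) and 0.56 ± 0.10 over days 3 to 28 (edgeR adjusted p = 0.00284). The day 7 call was lost without minusFoxp3 replicate 1 (0.76), plusFoxp3 replicate 1 (1.26) or plusFoxp3 replicate 2 (1.02), or when only the 4 libraries of the day were fitted (1.11).

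Map3k14, the kinase of the noncanonical route, was lower in active plusFoxp3 cells in the mean of days 3 to 28, though not at day 0. Before treatment the plusFoxp3 libraries (65.8 and 59.9 CPM) lay above the minusFoxp3 libraries (43.5 and 58.5 CPM). The minusFoxp3 libraries then gave 37.9 and 68.4 CPM at day 3, 35.6 and 62 at day 7, 46.6 and 63.3 at day 14, and 53.6 and 71.3 at day 28. The plusFoxp3 libraries gave 28.3 and 42, 34.7 and 31.5, 31.6 and 34.1, and 37.6 and 32.9 CPM. The groups overlapped at day 3 and not at the later days. The mean log2 difference of days 3 to 28 was -0.65 ± 0.15 (edgeR adjusted p = 0.014), and Map3k14 passed at no single day.

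Cd83 and Bcl3 were higher in cells that had regained Foxp3, in both states, with the largest log2 differences at day 28. Bcl3 encodes an atypical nuclear IκB protein. In active cells the log2 difference of Cd83 lay between -0.36 (day 0) and 0.35 (day 7) up to day 14 and did not pass. The day 14 minusFoxp3 libraries gave 106 and 95.4 CPM and the plusFoxp3 libraries 98.9 and 143, which overlapped. At day 28 the minusFoxp3 libraries held 75.6 and 89.7 CPM and the plusFoxp3 libraries 159 and 267, with no overlap (log2 1.37 ± 0.22, edgeR adjusted p = 0.00207). This call was lost without minusFoxp3 replicate 1 (1.26) or when only the 4 libraries were fitted (1.37). Over days 3 to 28 the log2 difference of Cd83 was 0.53 ± 0.11 (edgeR adjusted p = 0.00539).

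Cd83 is also made by B cells, so the summed CPM of 5 B cell markers is given beside it. The sum was 325–330.3 in active minusFoxp3 cells at day 0, 306–386 in minusFoxp3 and 1588–2368 in plusFoxp3 cells at day 28, and 3793–3949.6 in active GFP Treg cells. Resting cells gave 551–594, 642–647, 1299.8–1650.0 and 2157–2168 CPM in the same order. In active plusFoxp3 cells the sum was 754–1035 CPM at day 3, 1242–1255 at day 7 and 1302–1727 at day 14, against 329–411, 229–336 and 281–318 CPM in minusFoxp3 cells. The sums of resting cells at these days are not given. Nearly all of each sum was Ighm (a mean of 3828 CPM in active GFP Treg cells). Cd79b was 11.5–22.8 CPM in active minusFoxp3 cells at day 0, 15.3–15.9 in minusFoxp3 and 19.3–33.0 in plusFoxp3 cells at day 28, and 37.1–41.2 in active GFP Treg cells. Cd79a was at most 9.09 CPM, Ms4a1 at most 1.84 CPM and Pax5 at most 1.16 CPM in any library. The part of B cell RNA in the Cd83 values was not tested.

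Bcl3 in active cells before treatment was 124 and 121 CPM without and 114 and 83.0 CPM with CreERT2. In minusFoxp3 cells it gave 129 and 90.8 CPM at day 3, 111 and 108 at day 7, 127 and 117 at day 14, and 99.4 and 106 at day 28. In plusFoxp3 cells it gave 121 and 118, 125 and 161, 158 and 175, and 169 and 161 CPM. The groups separated from day 7 onwards. The log2 difference was 0.69 ± 0.17 at day 28 (edgeR adjusted p = 0.0419) and 0.44 ± 0.083 over days 3 to 28 (edgeR adjusted p = 0.00347). The day 28 call was lost without any 1 of its 4 libraries (log2 0.66 and 0.70 without minusFoxp3 replicates 1 and 2, 0.65 and 0.74 without plusFoxp3 replicates 1 and 2) and when only those 4 were fitted (0.69).

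**Figure D2:**
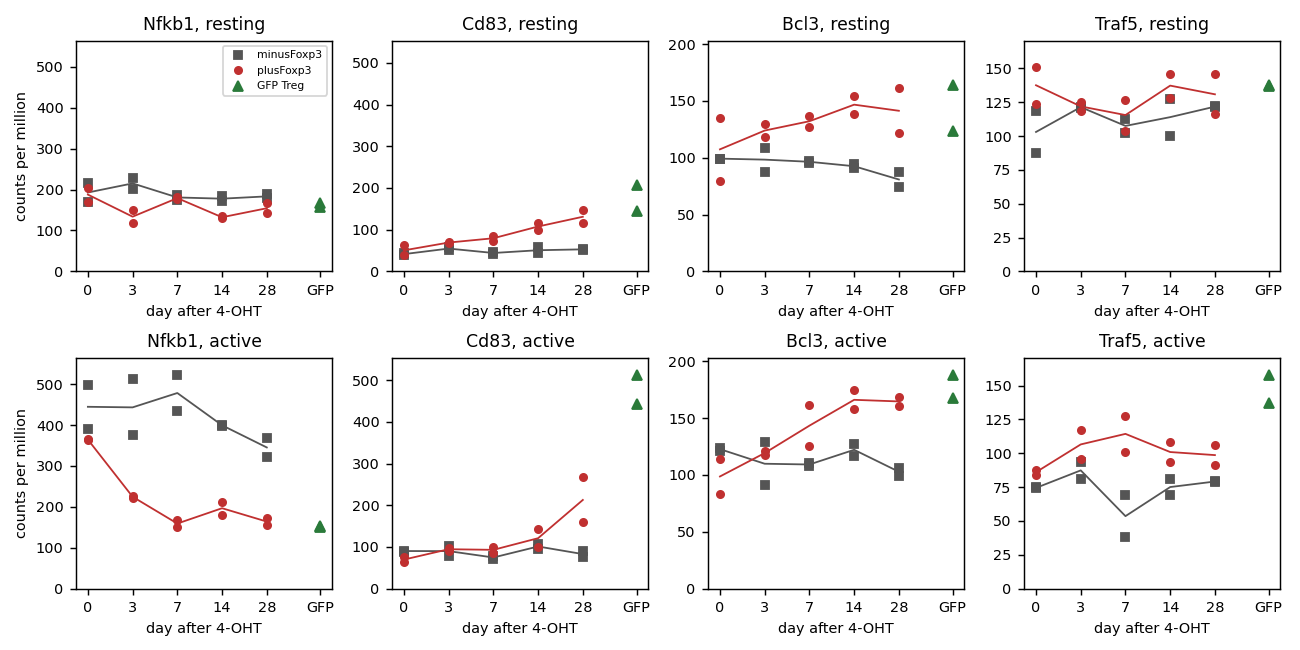
CPM of Nfkb1, Cd83, Bcl3 and Traf5 by day after 4-OHT in resting (top) and active (bottom) cells; grey squares are minusFoxp3 libraries, red circles plusFoxp3 libraries, lines join the means of 2 libraries and green triangles are GFP Treg cells. Active Nfkb1 falls from 363 and 366 CPM at day 0 to 150 and 168 at day 7 in plusFoxp3 cells, while Cd83 in resting plusFoxp3 cells climbs to 147 and 115 CPM at day 28.

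In resting cells Cd83 and Bcl3 were higher and Nfkb1 lower with restored Foxp3 in the mean of days 3 to 28. Cd83 stood at 42.9 and 39.7 CPM in minusFoxp3 cells at day 0, then 50.7 and 58.6, 45.5 and 42.5, 43.3 and 58, and 54 and 51.5 CPM at days 3, 7, 14 and 28. In plusFoxp3 cells it stood at 38.4 and 62.4 CPM at day 0, then 69.4 and 68.7, 85.8 and 73, 115 and 99.6, and 147 and 115. The groups overlapped at day 0 and at no later day. The log2 difference was 1.32 ± 0.23 at day 28 (edgeR adjusted p = 0.0102) and 0.92 ± 0.11 over days 3 to 28 (edgeR adjusted p = 0.000143). The day 28 call was lost without minusFoxp3 replicate 1 (1.32), minusFoxp3 replicate 2 (1.30) or plusFoxp3 replicate 1 (1.16), and when only the 4 libraries were fitted (1.32).

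Resting Bcl3 lay at 109 and 87.8, 97.5 and 95.4, 91 and 94.2, and 87.4 and 74.3 CPM in minusFoxp3 cells at days 3 to 28, and at 130 and 118, 137 and 127, 139 and 155, and 161 and 121 CPM in plusFoxp3 cells. The groups did not overlap at any of these days, and the mean log2 difference was 0.59 ± 0.11 (edgeR adjusted p = 0.00353). Resting Nfkb1 lay between 171 and 229 CPM in the minusFoxp3 libraries and between 117 and 182 CPM in the plusFoxp3 libraries of days 3 to 28. Its mean log2 difference was -0.32 ± 0.075 (edgeR adjusted p = 0.0198). That call was lost without any 1 of 8 of the 16 libraries, at log2 -0.29 (day 14 plusFoxp3 replicate 2), -0.31 and -0.30 (day 28 minusFoxp3 replicates 1 and 2), -0.29 (day 28 plusFoxp3 replicate 2), -0.27 (day 3 minusFoxp3 replicate 2), -0.27 (day 3 plusFoxp3 replicate 1), -0.29 (day 7 minusFoxp3 replicate 1) and -0.31 (day 7 plusFoxp3 replicate 1), and without the count filter (-0.31).

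By day, 0 of 35 members passed in resting cells at days 0, 3, 7 and 14, against 0.00487%, 0.0487%, 0.0585% and 0.268% of the 20520 genes tested with edgeR. At an unadjusted p under 0.05 the members were 8, 7, 2 and 4, against 10.8%, 11.0%, 5.71% and 8.87% of all genes. With DESeq2 they were 0, 1 (Nfkb1), 0 and 1 (Cd83), against 0.219%, 1.21%, 0.793% and 1.52%. At day 28, Cd83 was the 1 member that passed (0.945% of all genes). For the mean of days 3 to 28, 3 of 35 passed (4.73%), 2 higher (2.99%) and 1 lower (1.73%), and the median of the 35 was 0.07 beside -0.02 for all genes. Resting day 0 plusFoxp3 replicates 1 and 2 differed at a chi-square per gene of 170, with Chuk at 33.7 and 126 CPM. Without replicate 2, replicate 1 stood alone in its group. The log2 differences were then -1.89 (Chuk), -1.065 (Birc2), -1.01 (Cyld), 0.65 (Nfkbie) and 0.70 (Rela), which describe that library as much as the group.

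The mean effect of days 3 to 28, from which day 0 was not subtracted, differed between states for 1 of the 35 genes, Nfkb1. Among 20790 genes it differed for 1.82%. The active minus resting difference of its log2 effect was -0.84 ± 0.11 (edgeR adjusted p = 4.29e-05), and it passed whichever library was left out. Without active day 7 minusFoxp3 replicate 2, which left replicate 1 alone in its group, the difference for Traf5 was 0.52, with a larger effect in active cells. For Cd83 the difference was -0.41 ± 0.16 (edgeR adjusted p = 0.229) and for Bcl3 -0.17 ± 0.14 (edgeR adjusted p = 0.709), so a difference between states was not shown for either.

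Active GFP Treg cells differed from active day 0 minusFoxp3 cells in 11 of the 35 genes, 9 higher and 2 lower, the largest such count in the reversible model. Among all genes 5.21% were higher and 4.79% lower by the same test, and the median log2 difference was 0.34 for the 35 and 0.00 for all genes. These groups differ in genotype and reporter as well as in Foxp3. By role, 3 of 6 IκB proteins were higher (Nfkbid, Nfkbie, Bcl3), as were 2 of 9 adaptors or ligases (Birc2, Traf5), 1 of 4 brakes (Tnip1), 2 of 4 ligands or surface targets (Ltb, Cd83) and 1 of 5 subunits (Rel). The lower genes were the subunit Nfkb1 and Tab2, which links ubiquitin chains to the kinase Map3k7.

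Cd83 was 88.8 and 91.2 CPM in the day 0 minusFoxp3 libraries and 512 and 443 CPM in the GFP Treg libraries (log2 2.43 ± 0.22, edgeR adjusted p = 1.74e-06). Rel, a subunit tied to antigen receptor signals in T cells, was 22.1 and 20.5 against 53.4 and 47 CPM (1.26 ± 0.32, edgeR adjusted p = 0.0157). Tnip1, a ubiquitin-binding partner of Tnfaip3, was 92.2 and 105 against 200 and 199 CPM (1.04 ± 0.23, edgeR adjusted p = 0.00598). None of these pairs of groups overlapped. Birc2, a ligase that keeps Map3k14 low in unstimulated cells, was 81.5 and 98.8 against 185 and 181 CPM (1.04 ± 0.23, edgeR adjusted p = 0.00749). Nfkb1 was 499 and 391 against 152 and 151 CPM (-1.53 ± 0.16, edgeR adjusted p = 8.07e-06). Tab2 was 101 and 79.3 against 54.1 and 59.5 CPM (-0.64 ± 0.19, edgeR adjusted p = 0.0375).

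The remaining higher members had smaller log2 differences, from 0.56 (Bcl3) to 1.01 (Traf5), and Ltb rose by 0.80 on this scale from 1197 and 892 to 1691 and 1873 CPM. Fewer members passed when single libraries were left out. The counts were 3 without minusFoxp3 replicate 1 (5.52% of all genes), 7 without minusFoxp3 replicate 2 (7.08%), 5 without GFP Treg replicate 1 (6.05%) and 7 without GFP Treg replicate 2 (6.54%). Without minusFoxp3 replicate 1, Birc2 (0.88), Rel (1.29), Tab2 (-0.49) and Tnip1 (0.92) lost their calls. Rel also lost its call without minusFoxp3 replicate 2 (1.21) or GFP Treg replicate 1 (1.12), and Tab2 without GFP Treg replicate 1 (-0.62) or replicate 2 (-0.70) and when only the 4 libraries were fitted (-0.66). Cd83 and Nfkb1 kept theirs in each of these fits.

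Resting GFP Treg cells differed from resting day 0 minusFoxp3 cells in Cd83 alone of the 35 (2.91% of all genes passed). Cd83 was 42.9 and 39.7 against 208 and 145 CPM (log2 2.11 ± 0.24, edgeR adjusted p = 7.91e-05). Bcl3 (0.55 ± 0.22) and Nfkbie (0.41 ± 0.16) came next by p and did not pass (edgeR adjusted p = 0.258 and 0.264).

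After 28 days with restored Foxp3, 1 member in active cells and 0 in resting cells passed the test against GFP Treg cells. In active cells that member was Cd83, with 159 and 267 CPM at day 28 and 512 and 443 CPM in GFP Treg cells (log2 1.17 ± 0.22, edgeR adjusted p = 0.00644, 2.01% of all genes). The call was lost without day 28 plusFoxp3 replicate 1 (0.85) or GFP Treg replicate 1 (1.05), or when only the 4 libraries were fitted (1.15). Nfkb1, in contrast, differed by -0.11 ± 0.16 in active cells (edgeR adjusted p = 0.891). Of the 35, 26 were higher in active GFP Treg cells, with a median log2 difference of 0.17 beside -0.01 for all genes. There, 5 members had an edgeR unadjusted p under 0.05 (2322 of 20776 genes). Missing the threshold with 2 libraries a group does not show that a gene no longer differed. In resting cells 0 members had an unadjusted p under 0.05 (3.96% of all genes) and 0 passed with DESeq2 (0.283%), beside 0.0341% of all genes with edgeR. These comparisons share the GFP Treg libraries with the preceding ones.

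Tnfaip3, which encodes a ubiquitin-editing brake on the pathway, varied widely between the replicates of minusFoxp3 cells. In active minusFoxp3 cells it was 145 and 276 CPM at day 0, 115 and 485 at day 3, 90.9 and 441 at day 7, 139 and 441 at day 14, and 162 and 547 at day 28. Active plusFoxp3 cells gave 194 and 270, 265 and 228, 290 and 357, 120 and 302, and 219 and 352 CPM. The second minusFoxp3 library was the higher at every day, and the plusFoxp3 libraries lay within the minusFoxp3 range at every day except day 14, when 1 lay below it. In resting minusFoxp3 cells replicate 1 gave 113 to 155 CPM and replicate 2 gave 323 to 607.

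The summed CPM of 8 immediate-early genes (Fos, Fosb, Jun, Junb, Egr1, Ier2, Dusp1, Atf3), which are transcribed within minutes of stimulation and of tissue handling, moved with this. The sum was higher in replicate 2 than in replicate 1 in 10 of 10 minusFoxp3 groups, by 2.01 to 2.87 times, and in 6 of 10 plusFoxp3 groups (0.619 to 1.81 times). Tnfaip3 was higher in replicate 2 in 10 of 10 minusFoxp3 groups, by 1.91 to 4.86 times, and Nfkbiz, an inducible nuclear IκB protein, in 10 of 10, by 1.22 to 2.59 times. Nfkb1 was higher in replicate 2 in 1 of 10 minusFoxp3 groups. Across the 22 libraries of each state, log2 CPM correlated with the log2 immediate-early sum at r = 0.873 (resting) and 0.862 (active) for Tnfaip3, 0.819 and 0.61 for Nfkbiz, 0.229 and 0.677 for Nfkbia, and 0.023 and 0.012 for Nfkb1. These are descriptions, since the points share groups and library preparation.

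With the log2 immediate-early sum as a covariate, an alternative chosen after these values were seen, 10 members passed in the active mean of days 3 to 28 (8.08% of all genes) and 5 in the resting mean (4.52%). The 5 added in active cells were Tnip1 (log2 0.46), Nfkbiz (0.36), Traf1 (0.32), Nfkbie (0.30) and Nfkbid (0.27), and the 2 added in resting cells were Tnip1 (0.44) and Nfkbia (0.32), each higher with Foxp3. Nfkb1 gave -1.17 in active and -0.36 in resting cells in these fits. For active GFP Treg against day 0 minusFoxp3 cells 14 members passed (11.1% of all genes), with Nfkbiz (0.66) and Traf1 (0.45) added as higher and Map3k14 (-0.79) as lower. Nfkbiz was added as lower (-0.95) between active and resting cells at day 0, where 8 passed (15.6%), and Nfkbid as higher (0.61) between active and resting GFP Treg cells, where 4 passed (4.45%). No call was lost, and the count was the same in the other 14 comparisons of this model.

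**Figure D3:**
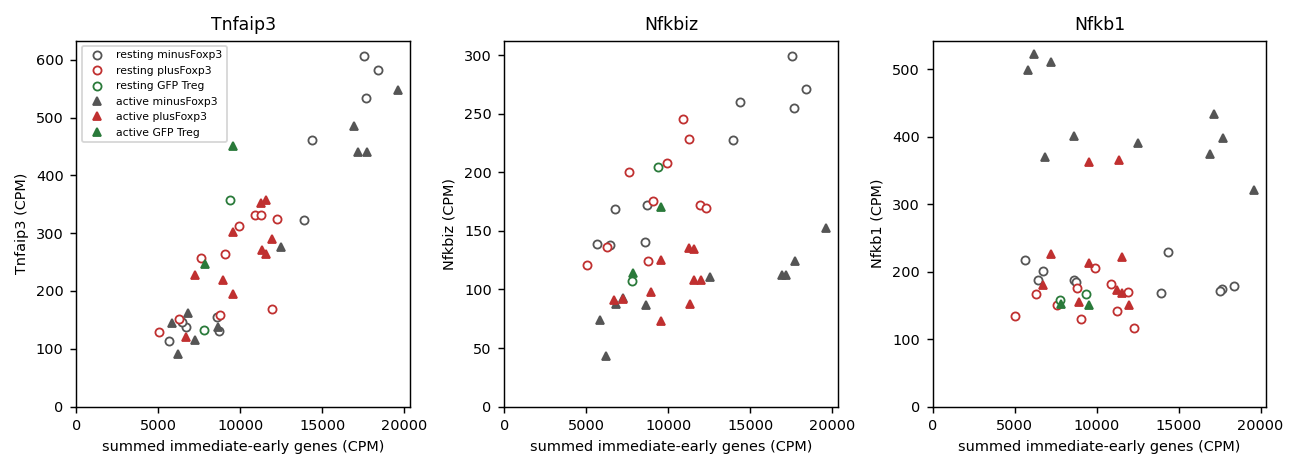
CPM of Tnfaip3, Nfkbiz and Nfkb1 against the summed CPM of 8 immediate-early genes in the 44 reversible-allele and GFP Treg libraries; open circles are resting and filled triangles active cells, with grey for minusFoxp3, red for plusFoxp3 and green for GFP Treg. Tnfaip3 and Nfkbiz climb with the sum, whereas Nfkb1 is highest in active minusFoxp3 libraries (321 to 522 CPM) and in active plusFoxp3 libraries at day 0 (363 and 366 CPM), with the remaining groups overlapping below them.

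Active and resting cells that lacked Foxp3 differed in 7 of the 35 genes at day 0, 4 higher and 3 lower in active cells, where 13.4% of all genes passed (7.87% higher, 5.57% lower). Nfkb1 was 217 and 169 CPM in resting and 499 and 391 in active cells (log2 1.20 ± 0.15, edgeR adjusted p = 1.87e-06). Cd83 was 42.9 and 39.7 against 88.8 and 91.2 CPM (1.12 ± 0.22, edgeR adjusted p = 0.00079). Both noncanonical subunits were higher in active cells, Nfkb2 at 56.2 and 99.8 against 122 and 158 CPM (0.83 ± 0.28, edgeR adjusted p = 0.0429) and Relb at 68 and 94 against 114 and 134 CPM (0.61 ± 0.18, edgeR adjusted p = 0.0244). None of these groups overlapped.

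The lower genes were Lta, Rel and Ikbke. Lta, a secreted member of the TNF family, was 176 and 151 CPM in resting and 71.6 and 53.6 in active cells (log2 -1.39 ± 0.22, edgeR adjusted p = 6.03e-05). Rel was 54.1 and 49 against 22.1 and 20.5 CPM (-1.28 ± 0.33, edgeR adjusted p = 0.00776). Ikbke, a kinase related to the canonical pair, was 233 and 335 against 121 and 157 CPM (-1.04 ± 0.30, edgeR adjusted p = 0.0197). Without active replicate 2, Nfkb2 (0.63), Rel (-1.23) and Relb (0.48) lost their calls; without resting replicate 1, Nfkb2 (0.47), Rel (-1.22) and Relb (0.38) did; and Ikbke lost its call without active replicate 1 (-0.86) or resting replicate 2 (-0.74).

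Between GFP Treg cells of the same states, 3 of 35 passed, each higher in active cells, against 3.12% of all genes (1.81% higher, 1.31% lower). Cd83 was 208 and 145 against 512 and 443 CPM (log2 1.41 ± 0.23, edgeR adjusted p = 0.000475). Relb was 105 and 79.9 against 182 and 163 CPM (0.88 ± 0.18, edgeR adjusted p = 0.00582), and Nfkbie, an inhibitor of Rel-containing dimers, was 83.7 and 70.6 against 132 and 105 CPM (0.60 ± 0.16, edgeR adjusted p = 0.0346). Relb lost its call without active replicate 1 (0.79) or resting replicate 2 (0.68). Nfkbie lost its call without active replicate 1 (0.42), resting replicate 1 (0.75) or resting replicate 2 (0.47), and without the count filter (0.62). Nfkb1, at 157 and 167 CPM in resting and 152 and 151 CPM in active GFP Treg cells, did not pass.

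Between thymic and active adult Treg cells of the degron model 19 of the 35 genes passed, 11 higher and 8 lower in thymus. Among 14769 genes 34.4% passed, 14.8% higher and 19.7% lower, and the median log2 difference was 0.11 for the 35 and -0.02 for all genes. Both genotypes entered this comparison, 6 libraries against 6, so its count cannot be ranked against those of groups with 2 libraries. Bulk RNA cannot tell fewer cells of a kind from less RNA per cell, here or in any other comparison.

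Lta was 353 to 392 CPM in the 3 thymic WT and 345 to 384 in the 3 thymic TIR1 libraries, and 75 to 140 and 105 to 152 CPM in the active libraries (log2 1.58 ± 0.14, edgeR adjusted p = 3.8e-06). Rel was 80.4, 92.1 and 91.8 CPM in thymic WT and 74.1, 58.9 and 79 in thymic TIR1 libraries, against 25.9, 15.7 and 26.8 and 26.5, 34.3 and 28 CPM in active cells (1.53 ± 0.15, edgeR adjusted p = 6.6e-06). Ikbke was 260, 264 and 279 (WT) and 312, 296 and 279 CPM (TIR1) in thymus and 109 to 157 CPM in active cells (0.95 ± 0.085, edgeR adjusted p = 2.89e-06). All 6 thymic libraries exceeded all 6 active libraries for each of these genes. The same held for Bcl3, at 272 to 417 CPM in thymus and 135 to 242 CPM in active cells (0.78 ± 0.094, edgeR adjusted p = 3.76e-05).

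Of the genes lower in thymus, Tnf, the founding cytokine of its family, was 9.57, 30 and 23.7 (WT) and 11.9, 30.3 and 26.3 CPM (TIR1) in thymus and 49.1 to 94.5 CPM in active cells (log2 -1.59 ± 0.29, edgeR adjusted p = 0.000931). Traf5 was 24.9 to 45.4 CPM in thymus and 72.8 to 103 in active cells (-1.35 ± 0.15, edgeR adjusted p = 2.07e-05). Nfkb1 was 112 to 152 and 181 to 318 CPM (-0.93 ± 0.10, edgeR adjusted p = 1.87e-05), and Traf1, an adaptor induced by the pathway, 185 to 256 and 280 to 378 CPM (-0.74 ± 0.089, edgeR adjusted p = 3.95e-05). None of the 4 overlapped between tissues. These 4 genes, and the 4 higher genes given in full, were picked as the called members with the largest log2 differences. Separation of their libraries therefore follows in part from the choice, and the share of all genes that separate was not computed. The other 7 higher genes were Birc3, Birc2, Nfkbiz, Tnip1, Chuk, Ltb and Nfkbia, with log2 differences from 0.29 (Nfkbia) to 0.74 (Birc3), and the other 4 lower genes were Tab2, Cd83, Rela and Otulin, from -0.27 (Otulin) to -0.53 (Tab2). The immediate-early sum was 1432–1729 CPM in the thymic and 2905–3651 CPM in the active libraries, and its part in these differences was not tested. Other markers also moved with tissue. The summed CPM of 4 resting markers was 5921–6607 in thymic and 1672–2542 in active libraries, that of 5 active markers 224–283 and 1299.9–1796, and that of the 5 B cell markers 138–192 and 937–1502, nearly all Ighm. Their part was not tested either.

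**Figure D4:**
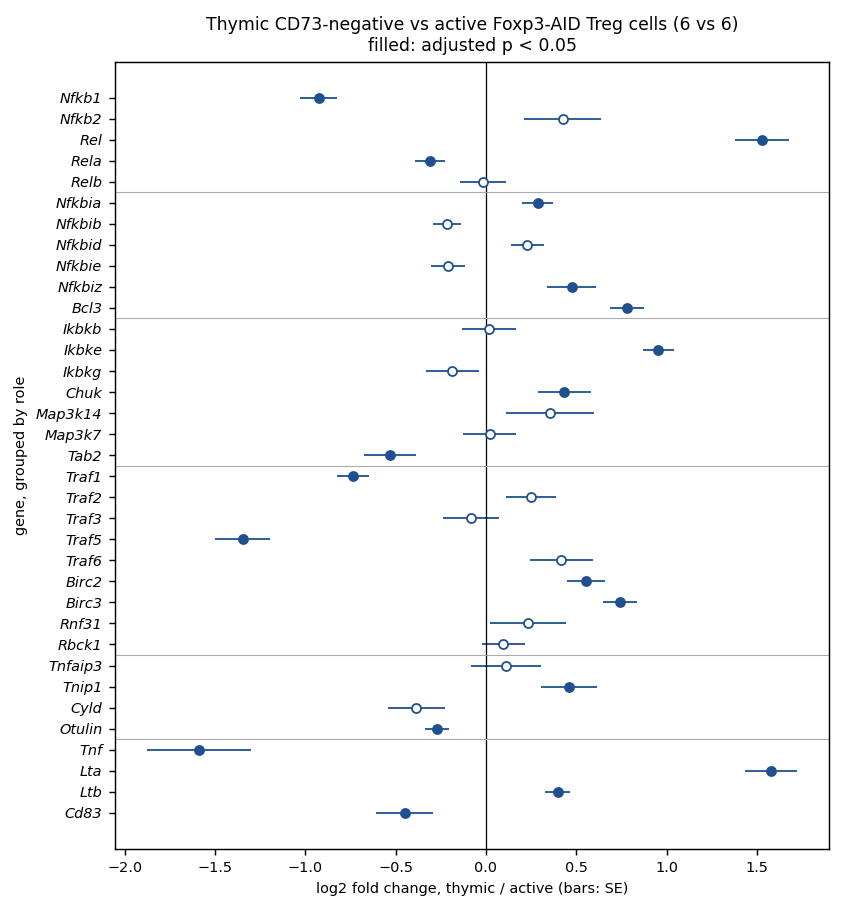
Log2 fold change of each of the 35 genes, thymic over active Foxp3-AID Treg cells (6 against 6 libraries), with SE bars, grouped by role; filled points have an edgeR adjusted p under 0.05. Lta (1.58) and Rel (1.53) lie farthest right, Tnf (-1.59) and Traf5 (-1.35) farthest left, and 16 points are open.

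Degradation of Foxp3 for 7 days left 0 of 35 members past the test in thymic cells and 0 in active cells, with 0% of all genes passing in either. In thymic cells 2 members had an unadjusted p under 0.05 (7.37% of 14245 genes) and 1, Ikbkb, passed with DESeq2 (1.11%). In active cells 6 members had an unadjusted p under 0.05 (4.62% of 14554 genes) and 0 passed with DESeq2 (0.145%). The thymic minus active difference passed for 0 members and 0% of genes, with 4 members (6.66%) at an unadjusted p under 0.05 and 0 (0.485%) with DESeq2. A gene that misses the threshold with 3 libraries a group is not thereby shown to be unchanged.

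In the active libraries, Bcl3 was 220, 229 and 242 CPM in WT and 178, 135 and 149 CPM in those labelled TIR1 (log2 -0.61 ± 0.15, edgeR adjusted p = 1.00). Nfkb1 was 196, 181 and 206 CPM in WT and 273, 252 and 318 CPM in TIR1 libraries (0.50 ± 0.14, edgeR adjusted p = 1.00). Relb was 139, 191 and 162 against 134, 97.6 and 120 CPM (-0.51 ± 0.18, edgeR adjusted p = 1.00). Nfkb1, Bcl3 and Relb, shown because they had the smallest unadjusted p, did not overlap between the genotypes, and each sign turns under the recorded file attachment. With 3 libraries a group some members separate by chance, and the share of all genes that do was not computed. WT replicate 1 differed from WT replicates 2 and 3 at a chi-square per gene of 131 and 161, against 48.8 between replicates 2 and 3.

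In the thymic libraries, Ikbkb, a catalytic subunit of the canonical kinase, was 123, 135 and 98.4 CPM in WT and 160, 184 and 187 CPM in TIR1 (log2 0.57 ± 0.14, edgeR adjusted p = 0.47). Nfkbid was 168, 196 and 182 against 172, 134 and 139 CPM (-0.30 ± 0.12, edgeR adjusted p = 0.663), and Rel gave -0.32 ± 0.14 (edgeR adjusted p = 0.682). The thymic minus active difference was largest for Ikbkb (0.91 ± 0.30), followed by Birc2 (-0.55 ± 0.21) and Nfkb1 (-0.54 ± 0.20), each with an edgeR adjusted p of 0.684. Ikbkb did not overlap between genotypes in thymus.

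**Figure D5:**
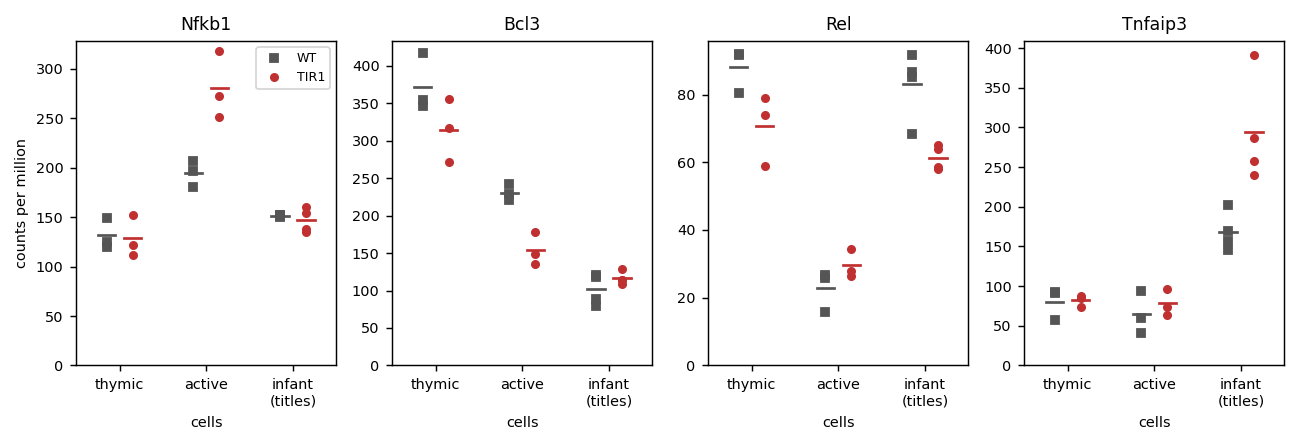
CPM of Nfkb1, Bcl3, Rel and Tnfaip3 in thymic, active and infant Foxp3-AID Treg cells; grey squares are WT and red circles TIR1 libraries (titles for the infants), and bars mark the means. In active cells Nfkb1 is 273, 252 and 318 CPM in TIR1 and 196, 181 and 206 CPM in WT libraries, and infant Tnfaip3 is 240 to 392 against 145 to 202 CPM.

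Infant libraries were compared by title only, since title and genotype field conflict. No member passed (0 of 35, beside 0.0185% of 16209 genes), while 16 had an unadjusted p under 0.05 (17.4%) and 7 passed with DESeq2 (8.70%). Tnfaip3 was 258, 240, 286 and 392 CPM in the libraries titled TIR1 and 145, 170, 157 and 202 CPM in those titled WT, without overlap (log2 0.82 ± 0.16, edgeR adjusted p = 0.0727). Rel was 58.5, 63.9, 65.1 and 57.9 against 85.3, 86.7, 91.6 and 68.5 CPM, without overlap (-0.42 ± 0.098, edgeR adjusted p = 0.0944). Traf6, a ligase of receptor signalling, was 160, 144, 148 and 175 against 132, 133, 127 and 134 CPM (0.27 ± 0.072, edgeR adjusted p = 0.111). These genes were shown for their small unadjusted p, and the share of all genes without overlap was not computed.

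Replicate 4 of the infants titled WT stood apart from its group. The summed CPM of 5 genes that mark active Treg cells was 744, 740, 543 and 647 in the libraries titled TIR1 and 250, 220 and 193 in replicates 1 to 3 titled WT, but 585 in replicate 4. Without it, 6 members passed, against 11.0% of all genes. They were Tnfaip3 (log2 0.92) and Birc3 (0.33), higher in the libraries titled TIR1, and Tnf (-0.84), Rel (-0.50), Lta (-0.50) and Traf2 (-0.31), lower in them. The part of the active-cell markers in these values was not tested.

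Other genes of the pathway were followed from 3 lists, namely signalling intermediates between receptor and kinase complex (16 genes), receptors that feed the pathway (11) and targets (24). These lists were chosen with earlier results of these data known, so the shares of all genes beside them are no test of a list. The receptors include Tnfrsf4 and Tnfrsf18. The study reports lower levels of both proteins in resting Treg cells after Foxp3 degradation. In the active mean of days 3 to 28, 0 of 16 intermediates passed, while 5 of 11 receptors were higher and 1 lower, and 4 of 23 targets tested were higher and 7 lower, beside 3.23% of all genes higher and 2.99% lower. Among the receptors, the costimulatory molecules Tnfrsf9 (log2 2.05 ± 0.19, edgeR adjusted p = 3.73e-06) and Cd27 (1.33 ± 0.11, edgeR adjusted p = 7.07e-07) were higher with Foxp3 and Il18r1 was lower (-0.72 ± 0.11, edgeR adjusted p = 0.000482). Among the targets, the adhesion molecule Icam1 (0.78 ± 0.083) and the survival gene Bcl2l1 (0.64 ± 0.076) were higher and Irf4 (-0.49 ± 0.081) and Myc (-0.36 ± 0.069) lower, all with an edgeR adjusted p under 0.05. Bcl2a1d was also lower (-1.13 ± 0.14), but near-identical copies share its reads and the value is uncertain.

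In the resting mean of days 3 to 28, 1 of 16 intermediates was higher (Map3k8, log2 0.89 ± 0.14), 5 of 10 receptors tested were higher and 1 lower (Il18r1, -1.61 ± 0.20), and 3 of 22 targets were higher and 1 lower (2.99% and 1.73% of all genes). Between active GFP Treg and day 0 minusFoxp3 cells, 2 of 16 intermediates were higher (Tank 0.61 ± 0.17 and Traf4 1.05 ± 0.26), 7 of 11 receptors higher and 2 lower, and 3 of 23 targets higher and 4 lower (5.21% and 4.79% of all genes). Between thymic and active Treg cells the counts were 2 higher and 5 lower of 16 intermediates, 4 and 5 of 10 receptors, and 4 and 11 of 19 targets, beside 14.8% and 19.7% of all genes, with the intermediate Malt1 (log2 -2.17 ± 0.17) and the target Irf4 (-2.75 ± 0.35) among the lower genes. The median log2 difference of the targets in that comparison was -0.74, beside -0.02 for all genes. In the adult TIR1 and infant comparisons 0 genes of the 3 lists passed with edgeR.

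Annotated exon bases were shared with another gene by 8 of the 35 members (Nfkb2, Nfkbib, Bcl3, Ikbke, Ikbkg, Map3k14, Traf5 and Rnf31), and the reads were counted without strand, so part of their counts could belong to the neighbour.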

How the data were processed

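Bulk RNA-seq counts of 64 libraries in 28 groups were analysed, with 2 to 4 libraries per group. Libraries were made by the authors with SMART-Seq v4 from sorted cells. The deposited files hold whole-number read counts per gene; per the file headers they were made with featureCounts 2.0.3 on GENCODE mouse annotation release 30 without strand. The 20 degron files were counted by the authors with a mapping-quality minimum and primary alignments only, and the other 44 without these filters, so groups were tested only within each set. The submitters' processing notes name Bowtie2 and DESeq2 with no role. Columns of per-sample values left out numbered 0.

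Genes with a mean count of at least 10 in the libraries of a fit were tested with edgeR 4.0.16 (R 4.3.3; TMM scaling, robust quasi-likelihood F test, 1 coefficient per group), and p-values were adjusted over all genes tested by the Benjamini-Hochberg method, with calls at an adjusted p under 0.05. All libraries of a state, tissue or set entered its fit; comparisons between states used all 44 reversible-allele and GFP Treg libraries. SE is the log2 fold change divided by the square root of F. CPM is the count over the library's total, and RPKM divides it by exon length.

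Alternatives were DESeq2 1.42.0, its size factors within edgeR, no count filter, a replicate block, leaving out each library, fitting only the groups compared and, for adult TIR1 comparisons, the recorded file attachment. The immediate-early covariate and a crossed pairing were added after the data were seen. The pipeline was tested on simulated data. The members and the other gene lists were chosen with earlier results of these data known. All 35 members could be named, and full statistics were given to at most 4 called members per direction, or to the 3 with the smallest p where fewer were called. Replicate numbers do not state a shared mouse or day. The deviations of same-numbered libraries from their group means correlated at -0.123 to 0.224, with no pairing shown. No pair of replicates agreed within sampling noise (chi-square per gene at least 17.3). Of the B cell markers, 1 is not reported here.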

Additional observations from a re-analysis of the deposited data

Results flagged for a closer look

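Among 70 combinations of a member and an infant group tested for a library far from the others, 2 were found, where chance alone flags about 1 in 20. Traf2 in replicate 4 titled TIR1 stood at 83.2 CPM against 92.2 to 93.5 CPM in the other 3, a gap of 0.867 of the group's range. Nfkbid in replicate 1 titled WT stood at 160 CPM against 131 to 133 CPM, a gap of 0.918 of the range.

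The effect of restored Foxp3 on Nfkb1 over days 3 to 28 differed between the states. The active minus resting difference of the log2 effect was -0.84 (edgeR adjusted p = 4.29e-05), from an effect of -1.14 in active and -0.32 in resting cells, and both plusFoxp3 libraries lay below both minusFoxp3 libraries at all 4 active days and at 3 of 4 resting days (not day 7). Active minusFoxp3 cells also started from a higher level, 499 and 391 CPM at day 0 against 217 and 169 CPM in resting cells. Before the drug, active plusFoxp3 cells (363 and 366 CPM) already lay below active minusFoxp3 cells. Resting plusFoxp3 cells (171 and 205 CPM) overlapped resting minusFoxp3 cells at day 0. The day 0 differences were not subtracted from the effects above, and the share of all genes that separate by library was not computed.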

How the results depend on the processing

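The recorded file attachment, under which every adult TIR1 sign turns, was left out of this tally. Of the 86 member results followed, no direction of a called value turned under the other alternatives. Over these alternatives 1030 values kept their side of the threshold, 56 lost it and 19 gained it. Counts of members called moved as follows. Shares of all genes passing in the same fit stand in parentheses. With DESeq2 they were 1 at resting day 3 (1.21%), 1 at resting day 14 (1.52%), 2 at resting day 28 (2.4%), 1 in thymic TIR1 against WT (1.11%) and 7 in infants (8.7%). Without the count filter they were 1, 2 and 2 at resting days 7, 14 and 28 (1%, 1.35% and 1.8%), and 5, 6 and 8 at active day 7, day 28 and the active mean of days 3 to 28 (2.02%, 2.39% and 4.56%). When only the groups compared were fitted they were 0 at resting day 28 (0.136%), 0 at active days 3 and 7 (0.0243% and 0.019%), 1 at active day 28 (0.929%), and 7 and 0 for active GFP Treg cells against day 0 minusFoxp3 and day 28 plusFoxp3 cells (7.29% and 0.423%). With the immediate-early covariate, chosen after the data were seen, they were 5 and 10 in the resting and active means (4.52% and 8.08%). The cause of these moves was not tested.

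Leaving out each library in turn gave ranges of 0–5 members at resting day 0 (0.00487% to 10.2% of all genes), 0–1 at resting day 28 (0.156% to 0.516%), 0–1 at active day 3 (0.0627% to 0.125%) and day 14 (0.24% to 0.327%), 1–14 at active day 7 (0.135% to 11.7%), 1–2 at active day 28 (0.654% to 1.66%), 5–8 in the active mean (4.5% to 7.77%), 3–7 for active GFP Treg cells against day 0 (5.52% to 7.08%), 0–1 against day 28 (0.772% to 2.48%), 4–7 between states at day 0 (8.03% to 11.2%), 1–3 between states in GFP Treg cells (0.636% to 2.27%), 1–2 for the difference between states (0.88% to 2.36%) and 0–6 in infants (0.00613% to 11.0%). In the reversible model these fits left a group of 1 library, whose spread is then taken from the other groups. The high ends at resting day 0 and active day 7 came from such fits. Why the counts moved was not tested.

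With the replicate block the counts were 2 at resting day 28 (1.27% of all genes) and 1 in infants (0.0432%), and within 1.5 times of the value reported elsewhere. Replicate numbers shared no stated mouse or batch. Same-numbered libraries of the active GFP Treg and day 0 groups correlated at -0.123, and the crossed pairing, added after the data were seen, gave 12 calls (10.9% of all genes). Depth was at least 27753211 counts per library; whether depth or the number of libraries limits precision was not tested.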
